A study of Mus musculus with 21 samples.

Results

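The 5 libraries with low levels of dividing-cell transcripts were set against the 7 other libraries of the same 4 cell lines. They were chosen on cell-state scores computed from these same expression values, as E71K replicate 3, E71Q replicates 2 and 3, E76K replicate 3 and E113Q replicate 3. Their mates were E71K replicates 1 and 2, E71Q replicate 1, E76K replicates 1 and 2 and E113Q replicates 1 and 2. Together they are 12 of the 21 libraries of the series, and the 5 less dividing libraries are 5 of the 21. Because the libraries were divided on the values described here, the differences between the sides are a description and carry no test. Differences were taken within each line, so that the substitution is the same on both sides.

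All cells were C3H/10T1/2, a mouse embryo line of mesenchymal progenitors, grown in DMEM with 10% fetal bovine serum. Histone H2B carried lysine in place of glutamate E71 (E71K), glutamine at E71 (E71Q), lysine at E76 (E76K) or glutamine at E113 (E113Q) in the 4 lines described. The other groups carried glutamine at E76 (E76Q), lysine at E113 (E113K) or wild-type H2B (WT), and each of the 7 groups had 3 libraries. The labels name no clone and do not say how the H2B was delivered, and transcripts of a mutant H2B cannot be told from those of the endogenous genes in these values. The series calls its replicates independent, but the labels do not say whether the 3 libraries of a group were separate cultures, harvests or densities. P-values below therefore speak for the scatter of these libraries alone, and part or all of that scatter may be technical. Libraries from fewer dividing cells and libraries from cells that each hold less of these transcripts cannot be told apart in bulk RNA.

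A cell that divides copies its DNA in S phase with genes such as the Mcm helicase subunits, and then makes the proteins of mitosis in G2 phase, among them Ccnb1, Top2a and Mki67. Cells that leave the cycle lose both sets of transcripts, while immediate early genes such as Fos and Egr1 are made within minutes of serum, stress or mechanical handling and are soon degraded. C3H/10T1/2 cells can form cartilage, bone or fat cells, and division and differentiation are often opposed in such cells.

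Levels are TPM, a length-normalized share of all transcripts, after each library was rescaled by the median ratio of 8056 genes above 5 TPM in every library. Read totals cannot be had from TPM, so the depth of each library is unknown and no counting error can be given. The scaling factors were 1.124 in the less dividing library and 1.033 and 0.753 in the mates of E71K, and 1.011 and 1.073 against 0.826 in E71Q. They were 1.105 against 1.076 and 1.066 in E76K, and 0.948 against 1.047 and 1.043 in E113Q. One feature, Mir6236, took 2.35% of the TPM in the less dividing E71K library and 3.86% and 30.6% in its mates, and 9.90% and 5.47% against 21.2% in E71Q. The rescaling moved the median of all genes by more than 0.1 on the log2 scale in 3 lines. Without it the less dividing libraries of E71K, E71Q and E113Q stood at a median difference of 0.33, 0.29 and -0.13, against 0.02, 0.00 and 0.00 with it. Mesenchymal transcripts were present on both sides, with Vim at 2700 to 7200 TPM and Prrx1 at 122 to 222 TPM over the 12 libraries. Thy1, a surface antigen of mesenchymal cells, was at 0.163 TPM or less in the 3 E71K libraries and at 0.507 to 1.22 TPM in those of E71Q.

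The proliferation markers were lower, and Fos was higher, in the less dividing libraries of every line. Mki67, an antigen of cycling nuclei, had 27.95 rescaled TPM in the less dividing E71K library against 63.54 and 61.13 in its mates, and 13.96 and 16.07 against 19.66 in E71Q. It had 24.44 against 38.44 and 47.0 in E76K, and 13.71 against 46.67 and 43.87 in E113Q. The groups did not overlap in any line, and the mean difference over the 4 lines was -0.98 ± 0.54 on the log2(TPM + 1) scale (SD over lines, n = 4). Top2a, the topoisomerase that untangles chromosomes, had 110.4 TPM in the less dividing E71K library against 224.9 and 218.3 in its mates, and 60.5 and 65.83 against 82.6 in E71Q. It had 75.69 against 137.8 and 152.3 in E76K and 57.29 against 149.2 and 152.9 in E113Q, a mean difference of -0.92 ± 0.41. Both markers differed least in E71Q, where even the mate was low.

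Fos, a subunit of the AP-1 transcription factor, had 55.92 rescaled TPM in the less dividing E71K library against 4.34 and 4.781 in its mates. It had 73.9 and 54.09 TPM against 7.172 in E71Q, 9.767 against 1.28 and 0.6637 in E76K, and 61.21 against 4.712 and 3.171 in E113Q. The mean difference was 3.12 ± 0.52, and every less dividing library lay above every mate of the 4 lines. In the lines with no such division, Fos had 30.36, 36.14 and 33.21 TPM in E76Q, 25.88, 21.92 and 19.93 in E113K, and 0.4671, 0.7983 and 0.5445 in WT.

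**Figure D1:**
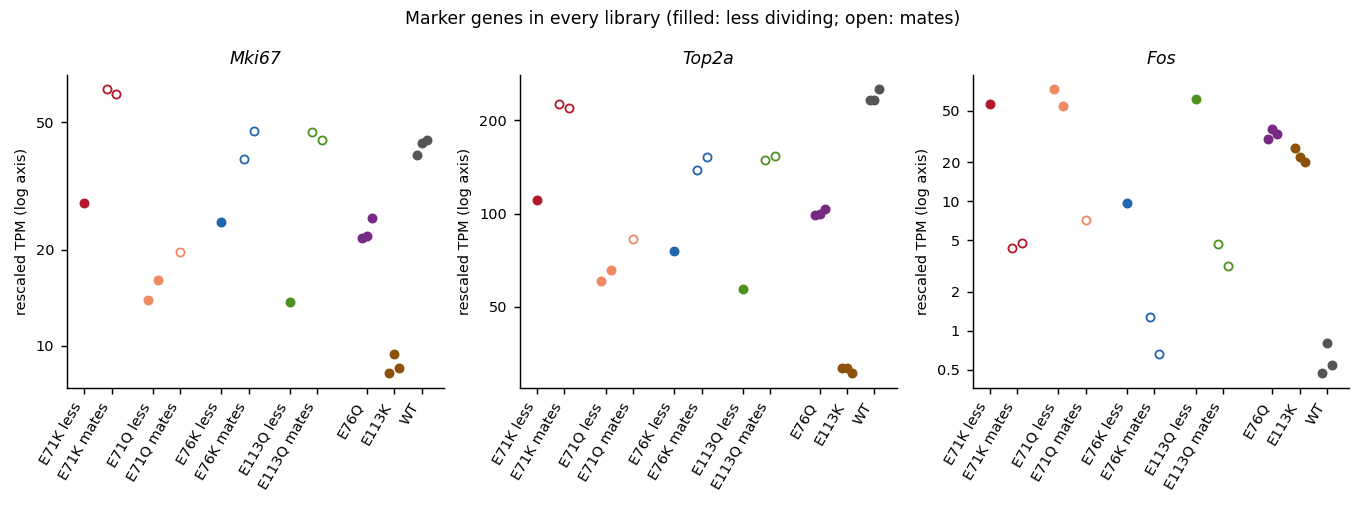
Rescaled TPM (log axis) of Mki67, Top2a and Fos in each of the 21 libraries, 1 point a library, with the less dividing libraries filled and their mates open in E71K, E71Q, E76K and E113Q, and the 3 libraries each of E76Q, E113K and WT at the right. Within each of the 4 lines the filled points lie below the open ones for Mki67 and Top2a and above them for Fos, with the smallest gap for Mki67 in E71Q (13.96 and 16.07 against 19.66 TPM).

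The name less dividing rests on the rescaling in E71Q. As deposited, Mki67 had 14.1 and 17.2 TPM in the less dividing E71Q libraries against 16.2 TPM in their mate, and Top2a 61.1 and 70.6 against 68.2 TPM, so both overlapped. The list of 42 genes of mitosis and G2 phase stood at -0.42 there as deposited, with 35 of the 42 genes lower and 0 higher than the mate in both libraries, and at -0.74 after rescaling. Replicate 3 is on the less dividing side in all 4 lines, and replicate 1 is a mate in all 4. In the lines with no division, replicate 3 minus replicate 1 gave 0.13, -0.36 and 0.07 for Fos and 0.20, 0.05 and 0.16 for Mki67 in E76Q, E113K and WT on the log2 scale. The median of the G2/M list differed there by 0.02, -0.01 and 0.02, so replicate 3 did not stand apart in those groups.

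Of the 12192 genes that averaged 1 TPM or more over all libraries, 2136 lay above every mate in all 4 lines (17.5% of the genes tested) and 1946 lay below (16.0%). Without rescaling these counts were 2226 above and 549 below, so counts of lower genes in all 4 lines depend on it. With a mean difference of at least 1 on the log2 scale, which is 2-fold, 121 were higher (0.992%) and 170 lower (1.39%), and these are called the genes apart in all 4 lines. In single lines, genes apart by at least 2-fold numbered 448 higher (3.67%) and 479 lower (3.93%) in E71K, and 153 (1.25%) and 238 (1.95%) in E71Q. They numbered 245 (2.01%) and 208 (1.71%) in E76K and 295 (2.42%) and 446 (3.66%) in E113Q. E71Q has 2 less dividing libraries and 1 mate where the other lines have 1 and 2, and in every line a single library makes up a whole side. The differences of 2 lines, which share no library, correlated across the 12192 genes with Pearson's r of 0.39 for E71K with E71Q, 0.42 for E71K with E76K and 0.38 for E71K with E113Q. The others were 0.27 for E71Q with E76K, 0.29 for E71Q with E113Q and 0.31 for E76K with E113Q. These values are descriptions, since the lines were divided on a common score, and genes are not independent replicates.

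Genes of mitosis formed the most uniform group. All 42 members of the list lay below every mate in all 4 lines, and 33 of the 42 by at least 2-fold on average, where 16.0% and 1.39% of all genes did so. The median of the list was -1.19 in E71K, -0.74 in E71Q, -1.15 in E76K, while E113Q stood at -1.65 on the log2 scale. Ccnb2, a cyclin that drives entry into mitosis, had 44.91 TPM in the less dividing E71K library against 102.8 and 98.38 in its mates, and 22.16 and 22.92 against 51.38 in E71Q. It had 27.41 against 83.66 and 84.86 in E76K and 25.06 against 110.1 and 102.3 in E113Q, a mean difference of -1.48 ± 0.43 (SD over lines, n = 4). Ccnb1, another cyclin of mitosis, differed by -1.40 ± 0.37. Anln, which anchors the ring that divides the cell, differed by -1.52 ± 0.40, and Kif20a, a kinesin of the late spindle, by -1.53 ± 0.48. Cenpa, the histone H3 variant of centromeres, had 33.75 TPM in the less dividing E71K library against 85.54 and 78.31 in its mates. It had 13.89 and 18.33 against 34.8 in E71Q, 35.05 against 88.21 and 92.1 in E76K, and 19.77 against 106.6 and 92.99 in E113Q. Ccnb2 and Cenpa were picked among genes with no overlap in any line, and in TPM the sides were nearest in E71Q.

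Promoters of mitotic genes are known to carry the cell cycle genes homology region, here searched as TTTGAA on both strands, often near a CCAAT box, searched as CCAAT on both strands. The window ran from 250 bases before to 50 bases after the RefSeq start (GRCm38.p6), and 35 of the 42 mitotic genes had an entry. TTTGAA was found in 25 of the 35 (71.4%), in 6 of 36 genes of DNA replication (16.7%) and in 1383 of 9440 tested genes with an entry (14.7%). Among the genes apart in all 4 lines it was in 56 of 132 lower genes (42.4%), mitotic genes included, and in 14 of 90 higher genes (15.6%). CCAAT, which shares an end base with TTTGAA and could overlap it by 1 base, was found in 24 of 35 mitotic genes (68.6%), 23 of 36 replication genes (63.9%) and 44.2% of all. A match is a run of letters and not a site shown to be used. The promoters of 3 mitotic genes on the lower side are shown to set the motifs beside their values, with matches to TTTGAA and CCAAT on either strand in capitals, 5′ to 3′ on the strand of the gene. Ccnb2 (chr9:70421505-70421804, minus strand) and Cenpa (chr5:30666636-30666935, plus strand) hold both motifs, and Anln (chr9:22389157-22389456, minus strand) holds TTTGAA on either strand and no CCAAT.
Ccnb2: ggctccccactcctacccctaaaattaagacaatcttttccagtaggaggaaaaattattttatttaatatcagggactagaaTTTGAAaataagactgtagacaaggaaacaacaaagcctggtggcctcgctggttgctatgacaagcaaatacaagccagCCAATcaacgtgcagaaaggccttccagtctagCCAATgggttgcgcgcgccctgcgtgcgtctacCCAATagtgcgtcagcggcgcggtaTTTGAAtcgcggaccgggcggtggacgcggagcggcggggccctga
Cenpa: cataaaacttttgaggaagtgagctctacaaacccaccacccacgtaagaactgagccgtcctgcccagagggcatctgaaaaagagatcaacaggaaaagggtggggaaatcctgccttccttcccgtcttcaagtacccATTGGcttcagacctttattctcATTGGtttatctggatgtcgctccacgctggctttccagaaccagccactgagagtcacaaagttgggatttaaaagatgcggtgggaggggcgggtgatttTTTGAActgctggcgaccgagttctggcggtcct
Anln: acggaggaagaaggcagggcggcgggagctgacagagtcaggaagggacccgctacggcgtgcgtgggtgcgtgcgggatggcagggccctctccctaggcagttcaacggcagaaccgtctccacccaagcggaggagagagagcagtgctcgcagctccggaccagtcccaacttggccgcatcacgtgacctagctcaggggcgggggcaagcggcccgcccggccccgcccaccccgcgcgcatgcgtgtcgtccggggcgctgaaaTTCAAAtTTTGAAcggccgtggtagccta

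Genes of DNA replication and the G1/S transition were lower by less, and unevenly between lines. Of 44 members 33 lay below every mate in all 4 lines and 0 above, against 16.0% and 17.5% of all genes, and 3 of them by at least 2-fold. The median was -1.05 in E71K, -0.73 in E76K and -0.83 in E113Q, but -0.17 in E71Q, where it was 0.10 without rescaling and only 7 of the 44 were then lower in all 4 lines. Tk1, the thymidine kinase of S phase, had 44.47 TPM in the less dividing E71K library against 129.3 and 114.9 in its mates, and 32.34 and 33.3 against 51.81 in E71Q. It had 46.17 against 86.49 and 79.13 in E76K and 53.78 against 136.9 and 129.6 in E113Q. Tk1 was picked among genes with no overlap in any line. Cdt1, which licenses replication origins, differed by -1.03 ± 0.34 and the DNA ligase Lig1 by -1.0 ± 0.50. Mcm2, a subunit of the replicative helicase, had 44.0 and 42.8 TPM against 48.38 in E71Q and a mean difference of -0.78 ± 0.43, and without rescaling Mcm2 and Lig1 stood at 0.17 and 0.01 in E71Q.

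Replication-dependent histone genes, whose transcripts lack a poly(A) tail, were low on the median in 3 lines but seldom lower in all 4. Of 48 tested (of 56 listed) 6 were lower and 3 higher than every mate in all 4 lines, beside 16.0% and 17.5% of all genes, and 4 were lower and 1 higher by at least 2-fold on average. The median was -1.24 in E71K, 0.01 in E71Q, -0.42 in E76K, while E113Q stood at -0.57, and the median of the members' means was -0.67. Hist1h1c, a linker histone gene, was higher, with 89.03 TPM in the less dividing E71K library against 31.55 and 37.56 in its mates, 235.4 and 220.0 against 86.91 in E71Q, 64.65 against 46.06 and 49.94 in E76K, and 178.5 against 48.25 and 49.7 in E113Q. Hist1h3b, Hist1h3c and Hist1h2ai, core histone genes, had mean differences of -2.22, -1.50 and -1.20, but they have near-identical copies among which reads can be divided, and these values are uncertain. The list stood at 1.49 in E71K replicate 2, where Mir6236 took 30.6% of the TPM, and at 0.41 in replicate 1, its fellow mate; whether the 2 are linked was not tested.

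The inhibitors of cyclin-dependent kinases were not uniformly higher. Cdkn1a, the p21 inhibitor, had 235 TPM in the less dividing E71K library against 251.1 and 253.5 in its mates, and 324.9 and 302.2 against 431.7 in E71Q. It had 233.5 against 251.3 and 247.5 in E76K and 253.9 against 244.6 and 240.1 in E113Q, so it was lower in 3 lines and higher in 1. These directions depend on the scaling. As deposited Cdkn1a stood at 0.25 in E71K and -0.07 in E113Q, and under quantile normalization at -0.02 in E113Q. Cdkn1b, the p27 inhibitor, was higher in 3 lines and lower in E113Q (mean 0.07 ± 0.23). Ccnd1, the D cyclin that answers growth factors, was lower in all 4 lines, with 145 against 310.4 and 322.1 TPM in E71K, 103.9 and 107 against 183 in E71Q, 202 against 264.9 and 256.8 in E76K and 117.9 against 219.1 and 219.4 in E113Q. Btg2, which restrains division, was higher (mean 1.09 ± 0.35), as was the growth arrest gene Gas1 (1.07 ± 0.43). Of 23 tested p53 target genes 4 were higher and 7 lower in all 4 lines, beside 17.5% and 16.0% of all genes, and without rescaling 2 and 4 were. Genes of ribosome biogenesis and Myc targets were lower by small amounts, with 22 of 34 below every mate in all 4 lines and 0 above, beside 16.0% and 17.5% of all genes, and a median of -0.33. Without rescaling 3 of the 34 were below every mate in all 4 lines. Their median in E71Q was -0.18, and 0.14 without rescaling.

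Immediate early genes split into those that were higher and those that were lower. Of 28 tested members (of 30 listed) 13 lay above and 6 below every mate in all 4 lines, beside 17.5% and 16.0% of all genes, and the list median was 0.32. Zfp36, which binds AU-rich transcripts and speeds their decay, had 53.57 TPM in the less dividing E71K library against 8.418 and 8.552 in its mates, and 74.04 and 65.0 against 11.07 in E71Q. It had 52.42 against 13.48 and 13.61 in E76K and 45.95 against 13.07 and 13.07 in E113Q. Ier2 had 115 TPM against 40.69 and 36.65 in E71K, 246.9 and 211.9 against 46.06 in E71Q, 157.9 against 34.18 and 34.85 in E76K, and 253.4 against 52.23 and 48.26 in E113Q. Both genes were picked among those whose sides did not overlap in any line. Egr1, a zinc finger factor induced by serum, differed by 1.75 ± 0.40, the nuclear receptor Nr4a1 by 1.54, Ier3 by 1.19 and Junb by 0.97. On the other side stood Fosl1, an AP-1 subunit of growing cells, at -1.39, Maff at -0.88, Klf4 at -0.64, Ier5 at -0.54, Myc at -0.45 and Klf10 at -0.40. Cyr61, a matricellular protein gene that is both serum-induced and a YAP target, had a mean of 1.75 ± 0.38. Yet 3 of 23 tested YAP and TEAD targets were higher in all 4 lines and 6 were lower, beside 17.5% and 16.0% of all genes, and 1 was lower without rescaling.

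Of the 12 genes with the largest mean differences upward, 4 were on the chondrocyte or osteoblast list: Ucma, Cnmd, Chadl and Bglap2. Ucma, a secreted protein of chondrocytes, had 17.7 rescaled TPM in the less dividing E71K library against 0 and 0.2261 in its mates, and 143 and 165.8 against 10.21 in E71Q. It had 0.6561 against 0 and 0.2004 in E76K and 118.6 against 1.124 and 0.7784 in E113Q, a mean difference of 3.60 ± 2.22. In E76K the level on either side was under 1 TPM. Cnmd, chondromodulin of cartilage, had 275.4 TPM against 15.65 and 14.73 in E71K, 129.1 and 147.2 against 45.04 in E71Q, 8.271 against 1.357 and 1.416 in E76K, and 24.15 against 0.4273 and 1.111 in E113Q. Chadl, a leucine-rich protein of cartilage, had 67.77 against 2.361 and 1.746 in E71K, 18.07 and 19.06 against 6.034 in E71Q, 2.131 against 0 and 0.1547 in E76K, and 5.63 against 0.4782 and 0.4661 in E113Q. These genes were picked among those that keep the order of the sides in every line, so that order is no separate result. Their level differed between lines by more than 10-fold.

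Of 16 chondrocyte genes tested (of 27 listed) 9 were higher in all 4 lines, 0 were lower, and 6 of the 9 were higher by at least 2-fold on average, beside 17.5%, 16.0% and 0.992% of all genes. A gene that is low in most libraries could pass the filter only through the libraries where it is high, so these counts do not cover the full list. The median was 1.31 in E71K, 0.60 in E71Q, 0.18 in E76K, while E113Q stood at 1.60. Col11a1, a fibrillar collagen of cartilage, had 200.1 TPM against 52.71 and 52.23 in E71K, 198.8 and 229.9 against 72.64 in E71Q, 78.56 against 39.11 and 43.37 in E76K, and 222.6 against 67.34 and 65.77 in E113Q. Sox9, the transcription factor of cartilage, was higher in E71K (196.5 against 115.9 and 139.2 TPM), E113Q (155.2 against 98.16 and 99.68) and, by less, E76K (51.28 against 42.07 and 48.58). It overlapped in E71Q (168.9 and 182.2 against 176.7). That overlap depends on the scaling, since as deposited Sox9 was higher in all 4 lines, at 0.32 in E71Q. Col2a1, the collagen typical of cartilage, had a mean difference of 0.09 with the sides overlapping.

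Bglap2, an osteocalcin gene, had 180.8 TPM in the less dividing E71K library against 7.734 and 4.946 in its mates, and 880.2 and 931.6 against 121 in E71Q. It had 24.22 against 4.599 and 6.144 in E76K and 48.02 against 5.91 and 0 in E113Q. Bglap, which shares reads with it, differed by 2.07 ± 0.84, and the division of reads between them is uncertain. Runx2, the transcription factor of bone, was higher in 3 lines and overlapped in E113Q (16.47 against 15.54 and 17.4 TPM). Of 16 tested osteoblast genes (of 24 listed) 5 were higher and 2 lower in all 4 lines, beside 17.5% and 16.0% of all genes. Without rescaling 6 were higher and 0 lower. The list median was smallest for E113Q at 0.05 and next for E71Q at 0.19, with 0.45 for E76K and 0.53 for E71K. The large differences of Bglap2 and Bglap thus do not stand for the list. Of 34 tested collagen and fibrillar matrix genes 10 were higher and 4 lower in all 4 lines, beside 17.5% and 16.0% of all genes, and without rescaling 16 and 2 were. Col1a1, the main collagen of bone and skin, was lower, with 1248 against 1652 and 1650 TPM in E71K, 914.2 and 919.3 against 1327 in E71Q, 1263 against 1543 and 1854 in E76K, and 1778 against 1930 and 1790 in E113Q. Without rescaling or under quantile normalization it overlapped in 1 line. Lum, a small leucine-rich proteoglycan, differed by 2.08 ± 0.75, Ogn, another, by 1.34 ± 1.03, and Postn, a matricellular protein of periosteum and ligament, by 1.34 ± 0.58. Clu, a secreted chaperone, had 60.74 against 5.927 and 6.259 TPM in E71K, 53.89 and 61.04 against 13.77 in E71Q, 68.02 against 8.141 and 8.804 in E76K, and 90.3 against 24.31 and 25.28 in E113Q. Scrg1 (2.50 ± 0.94), Cmtm5 (2.41 ± 1.94), Rnase1, a secreted ribonuclease (2.32 ± 0.54), and 1500015O10Rik (2.27 ± 0.82) completed the genes of largest difference, with Mir6935 (2.98 ± 1.88), a feature too short to be counted reliably.

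**Figure D2:**
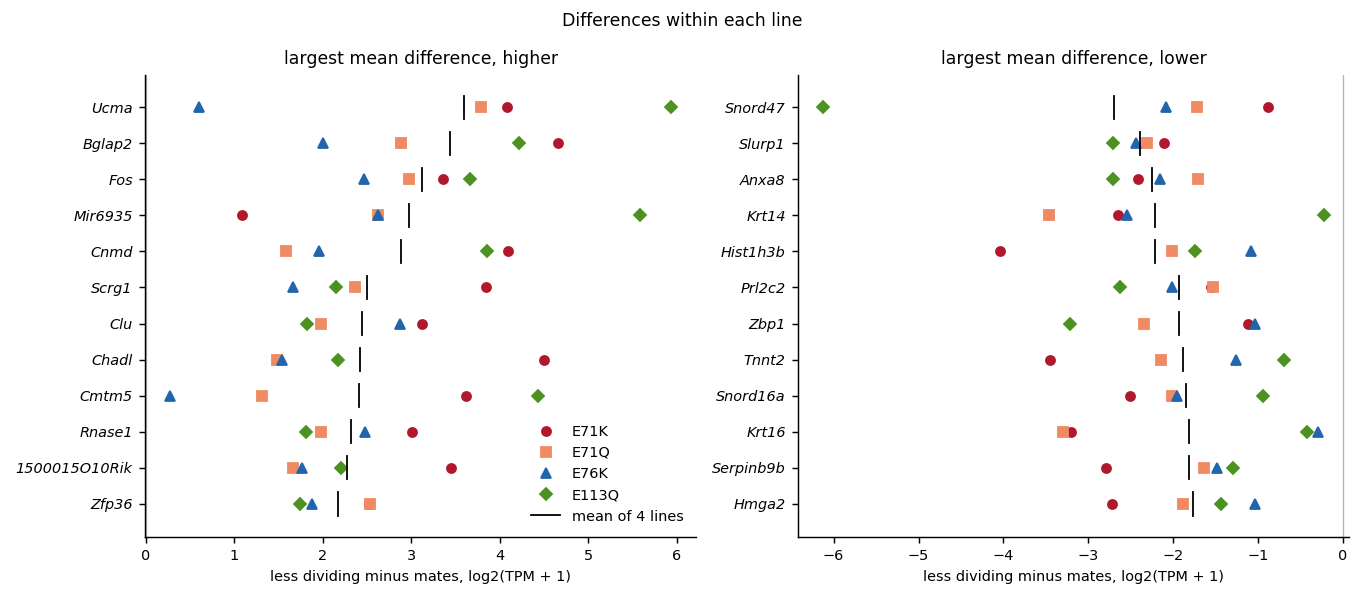
Difference between the less dividing libraries and their mates within each line, in log2(TPM + 1), for the 12 genes with the largest mean difference upward (left) and downward (right); 1 symbol a line and a bar at the mean of the 4 lines. All symbols lie on 1 side of 0 because the genes were picked for that, while the spread between lines is wide for Ucma (0.60 in E76K to 5.94 in E113Q) and narrow for Slurp1 (-2.71 to -2.11).

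On the lower side, Slurp1, a secreted protein of epithelia, had the most even difference among the 12 largest. It had 72.32 TPM in the less dividing E71K library against 331.8 and 300.3 in its mates, and 321 and 297 against 1539 in E71Q. It had 21.13 against 119.1 and 119.4 in E76K and 4.601 against 36.13 and 35.17 in E113Q, a mean difference of -2.39 ± 0.25. Anxa8, a membrane-binding annexin, had 35.52 against 201.8 and 188.1 TPM in E71K, 113.1 and 108.9 against 365 in E71Q, 34.31 against 159.9 and 153.1 in E76K, and 14.41 against 101.1 and 98.13 in E113Q. Krt14, a keratin of basal epithelium, had 70.33 TPM against 467.6 and 424.6 in E71K and 40.36 and 37.99 against 439.9 in E71Q. It had 0.4303 against 8.05 and 6.772 in E76K and 0.1039 against 0.4394 and 0.1523 in E113Q, where it was scarcely present on either side. Krt16, a keratin of stressed epithelium, had 1.49 against 21.17 and 23.04 TPM in E71K and 2.679 and 2.059 against 32.12 in E71Q, and lay below 1 TPM in E76K and E113Q.

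Most other epithelial markers were too low to be tested. Of 18 epithelial markers 4 were tested and 2 were lower in all 4 lines. The summed level was lower in the less dividing libraries of each line, at 2.72 to 73.4 TPM against 9.0 to 474 in the mates over the 4 lines. Krt14 made up most of it in E71K and E71Q. In E113Q the sums were nearly equal, at 31.3 against 32.8 and 31.6 TPM. The median of the tested markers was 0.05 in E76K and -0.09 in E113Q. Epcam, a defining marker, was at 0.1 TPM or less, and Cldn3 and Cldn4 were at 0 in all 12 libraries. Hmga2, a chromatin protein of embryonic and growing cells, had 11.86 against 80.58 and 86.56 TPM in E71K, 9.771 and 8.671 against 36.91 in E71Q, 19.88 against 45.22 and 38.85 in E76K, and 16.06 against 44.58 and 46.03 in E113Q. Tnnt2, the troponin T of heart muscle, had 13.72 against 162.9 and 157.1 TPM in E71K and 17.64 and 16.9 against 79.77 in E71Q, with a mean difference of -1.89 ± 1.20. Zbp1, a sensor of nucleic acids that interferon induces, differed by -1.93 ± 1.04. Serpinb9b (-1.81 ± 0.67) and the proliferin gene Prl2c2 (-1.93 ± 0.51) have close paralogs, and Snord47 (-2.70 ± 2.34) and Snord16a (-1.85 ± 0.66) are short features, so these values are uncertain.

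Genes of lipid synthesis and of the lysosome were higher by small and even amounts. Of 26 tested genes of cholesterol synthesis and uptake (of 28 listed) 20 lay above every mate in all 4 lines and 0 below, beside 17.5% and 16.0% of all genes, and only 2 reached 2-fold. The median was 0.33 in E71K, 0.66 in E71Q, 0.26 in E76K, while E113Q stood at 0.82, and no line changed sign without rescaling. Hmgcs1, the synthase at the start of the pathway, had 134 TPM against 93.4 and 97.63 in E71K, 186.7 and 191.8 against 116.6 in E71Q, 189.8 against 130.4 and 136.9 in E76K, and 146.9 against 77.2 and 81.37 in E113Q. Tm7sf2, a sterol reductase, had 22.32 against 6.472 and 9.811 TPM in E71K, 97.78 and 94.13 against 24.7 in E71Q, 33.88 against 12.35 and 14.68 in E76K, and 21.63 against 10.29 and 8.206 in E113Q. Dhcr7, which makes the last step to cholesterol, differed by 1.08 ± 0.22, Insig1, which holds the pathway in check, by 0.79, and the squalene epoxidase Sqle by 0.70. Srebf2, the transcription factor of the pathway, differed by 0.39. Of 17 tested genes of fatty acid synthesis 12 were higher and 1 lower in all 4 lines (median 0.43), beside 17.5% and 16.0% of all genes.

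CCAAT was in 18 of 19 promoters of cholesterol genes with an entry (94.7%) and in 44.2% of all. TCACCCCAC, a form of the sterol response element, was in 1 of the 19 (5.26%) and in 67 of 9440 (0.71%), also on both strands. The 1 promoter was that of Hmgcs1 (chr13:119690101-119690400, plus strand, GRCm38.p6, from RefSeq), shown because this gene was followed in every line, with TCACCCCAC and the CCAAT matches, all on the opposite strand, in capitals.
Hmgcs1: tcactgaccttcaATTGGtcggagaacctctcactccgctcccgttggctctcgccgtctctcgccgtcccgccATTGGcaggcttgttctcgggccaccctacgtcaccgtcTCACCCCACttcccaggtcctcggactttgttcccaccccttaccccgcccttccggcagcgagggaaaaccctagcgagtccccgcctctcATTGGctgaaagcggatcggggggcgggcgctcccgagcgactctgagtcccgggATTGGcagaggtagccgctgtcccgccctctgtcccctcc

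Lysosome and autophagy genes were the list with the largest share of higher members, 28 of 35 tested (of 39 listed) with 0 lower, beside 17.5% and 16.0% of all genes. Their median was 0.55 in E71K, 0.33 in E71Q and 0.34 in E76K, while E113Q stood at 0.44. None of them reached 2-fold. Neu1, a lysosomal sialidase, differed by 0.90, Gaa, which breaks down glycogen, by 0.84, Man2b1, a mannosidase, by 0.81, Ctsa by 0.72 and Lamp1, a protein of the lysosome membrane, by 0.39. Nuclear-encoded genes of the respiratory chain had 23 of 46 higher and 0 lower at a median of 0.13, beside 17.5% and 16.0% of all genes. Without rescaling 14 were higher, and their median in E113Q was -0.01 without rescaling. Cytosolic ribosomal protein genes had a median of -0.20 with 8 of 79 lower and 0 higher in all 4 lines, beside 16.0% and 17.5% of all genes. Without rescaling 3 of the 79 were lower, and under quantile normalization 15. The list median in E71K was -0.24, and 0.11 without rescaling.

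**Figure D3:**
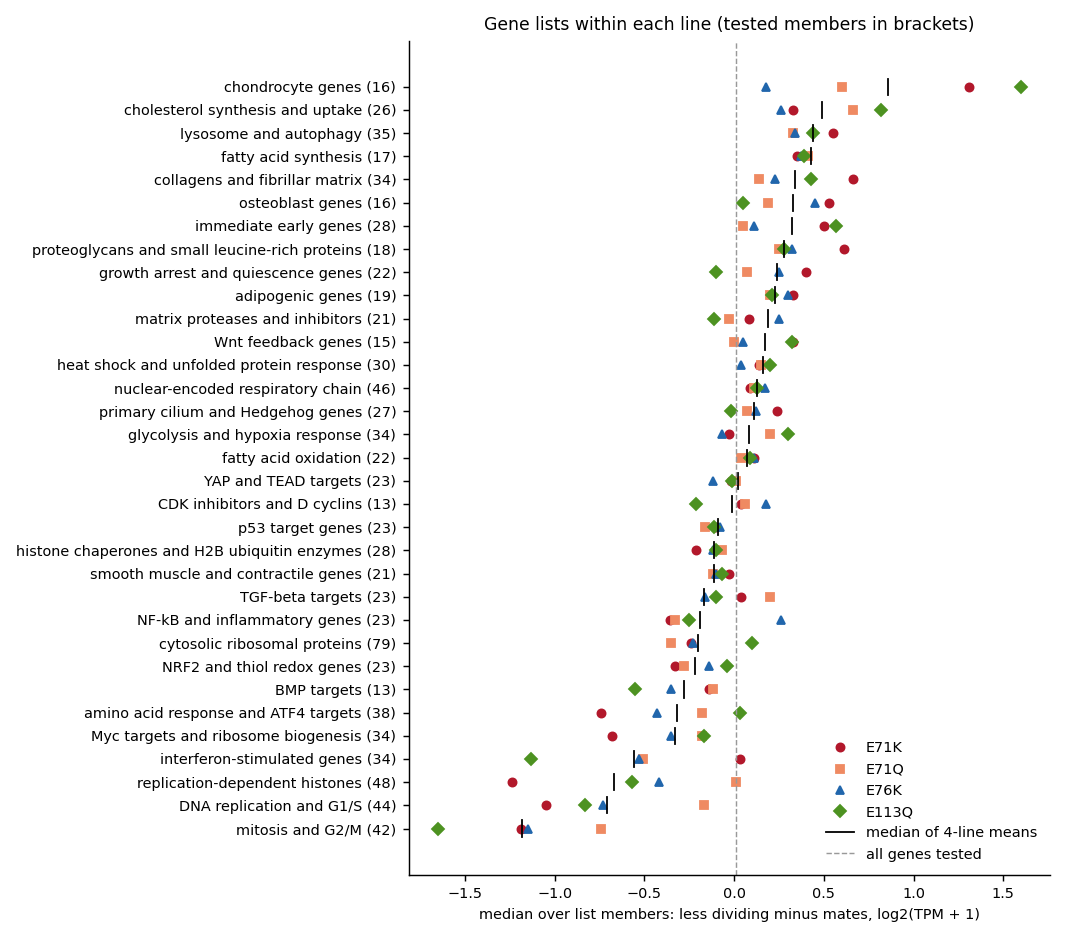
Median over the tested members of each gene list of the difference between less dividing libraries and mates, in log2(TPM + 1), 1 symbol a line, with a bar at the median of the members' means over the 4 lines and a dashed line at the median of all genes (0.01); lists with at least 10 tested members are shown. The 2 cell cycle lists and the histone list lie at the low end and chondrocyte, cholesterol and lysosome genes at the high end, with interferon-stimulated genes spread from 0.03 in E71K to -1.13 in E113Q.

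Interferon-stimulated genes differed between lines. Of 34 tested 9 were lower and 0 higher in all 4 lines (4 and 0 without rescaling), beside 16.0% and 17.5% of all genes, while the median was 0.03 in E71K, -0.51 in E71Q, -0.53 in E76K, while E113Q stood at -1.13. Irf7, the transcription factor that amplifies the interferon response, had 15.66 against 21.88 and 24.93 TPM in E71K, 13.54 and 14.15 against 34.76 in E71Q, 11.05 against 45.86 and 35.55 in E76K, and 11.28 against 54.45 and 51.55 in E113Q. Oas3, an enzyme that activates RNA decay, had 5.573 against 11.22 and 12.12 TPM in E71K, 4.368 and 3.641 against 14.38 in E71Q, 4.753 against 15.07 and 14.4 in E76K, and 1.577 against 10.11 and 9.586 in E113Q. Cxcl10, a chemokine gene, differed by -1.16 ± 0.70 and Mx2 by -1.11 ± 0.79, and Mx2 turned to 0.13 in E71K without rescaling. Of 23 tested inflammatory genes 2 were higher and 6 lower (2 and 4 without rescaling), beside 17.5% and 16.0% of all genes. The higher ones were Vcam1, an adhesion molecule (89.41 against 22.63 and 23.77 TPM in E71K, 203.7 and 219.1 against 45.19 in E71Q, 141.6 against 56.72 and 53.11 in E76K, 142.3 against 83.43 and 91.97 in E113Q), and the complement gene C3 (1.77 ± 0.65).

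The smooth muscle, adipogenic and TGF-beta lists had small median differences of -0.11, 0.23 and -0.17, beside 0.01 for all genes. Of 21 tested smooth muscle and contractile genes 3 were higher and 5 lower in all 4 lines, beside 17.5% and 16.0% of all genes. Acta2, smooth muscle actin, had a mean difference of 0.01 ± 0.26. Of 19 adipogenic genes 7 were higher and 1 lower, beside 17.5% and 16.0% of all genes. Dgat2, which makes triglyceride, differed by 1.02 ± 0.59, Fabp4, the lipid carrier of fat cells, by -1.19 ± 0.47, and Pparg, the regulator of fat cell formation, by -0.26 ± 0.14. Of 23 TGF-beta targets 6 were higher and 8 lower (6 and 3 without rescaling), beside 17.5% and 16.0% of all genes. Tgfb2, a ligand of the pathway, differed by 1.15 ± 0.75. Hes1, a Notch target, differed by -1.17 ± 0.57. Rspo2, a secreted enhancer of Wnt signals, had 134.9 against 44.16 and 47.63 TPM in E71K, 35.21 and 36.42 against 11.74 in E71Q, 501.5 against 273.2 and 275.1 in E76K, and 271.1 against 211.7 and 222.5 in E113Q.

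Summed markers of some other cell types also separated the sides. Macrophage and leukocyte markers summed to 44.6 TPM in the less dividing library against 25.8 and 28.1 in the mates of E71K, 103 and 102 against 54.7 in E71Q, 111 against 77.6 and 78.1 in E76K, and 16.3 against 14.2 and 12 in E113Q. They were higher in the less dividing libraries of all 4 lines, with 1 of 3 tested genes higher in each line, Lyz2, a lysozyme gene that the lysosome list also holds. Of the 15 markers 6 were at 0 in all 12 libraries, and Ptprc, the defining leukocyte antigen, was at 0.161 TPM or less. Summed endothelial markers were 5.89 to 15.2 TPM in the less dividing libraries against 6.29 to 21.7 in the mates, lower in 3 lines and overlapping in E76K, with 2 of 3 tested genes lower in all 4 lines. Skeletal muscle markers summed to 5.96 to 16.5 against 8.22 to 15.3 TPM, with 1 of 5 tested genes lower. Neural and glial markers summed to 133 TPM in the less dividing library against 76.2 and 81.1 in the mates of E71K, 338 and 347 against 217 in E71Q, 48.8 against 36.5 and 36.9 in E76K, and 88.7 against 60.8 and 63.0 in E113Q. These sums too were higher in all 4 lines, with 2 of 6 tested genes higher and 1 lower in each. The higher sum rested on S100b in E71K, where this gene had 100.2 TPM against 33.32 and 36.35 in the mates. The same held for E71Q, with S100b at 280.9 and 284.8 against 147.4 TPM. S100b made up less of the sum in the less dividing libraries of E76K (18.52 TPM) and E113Q (33.02 TPM). The median difference of the 6 tested genes was -0.11 for E71Q and positive for the other lines. S100b and Gfap differed by 1.15 ± 0.26 and 1.05 ± 0.79, while Sox10, a defining glial gene, was at 0.0912 TPM or less. The part of other cell types in the gene groups above was not tested.

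**Figure D4:**
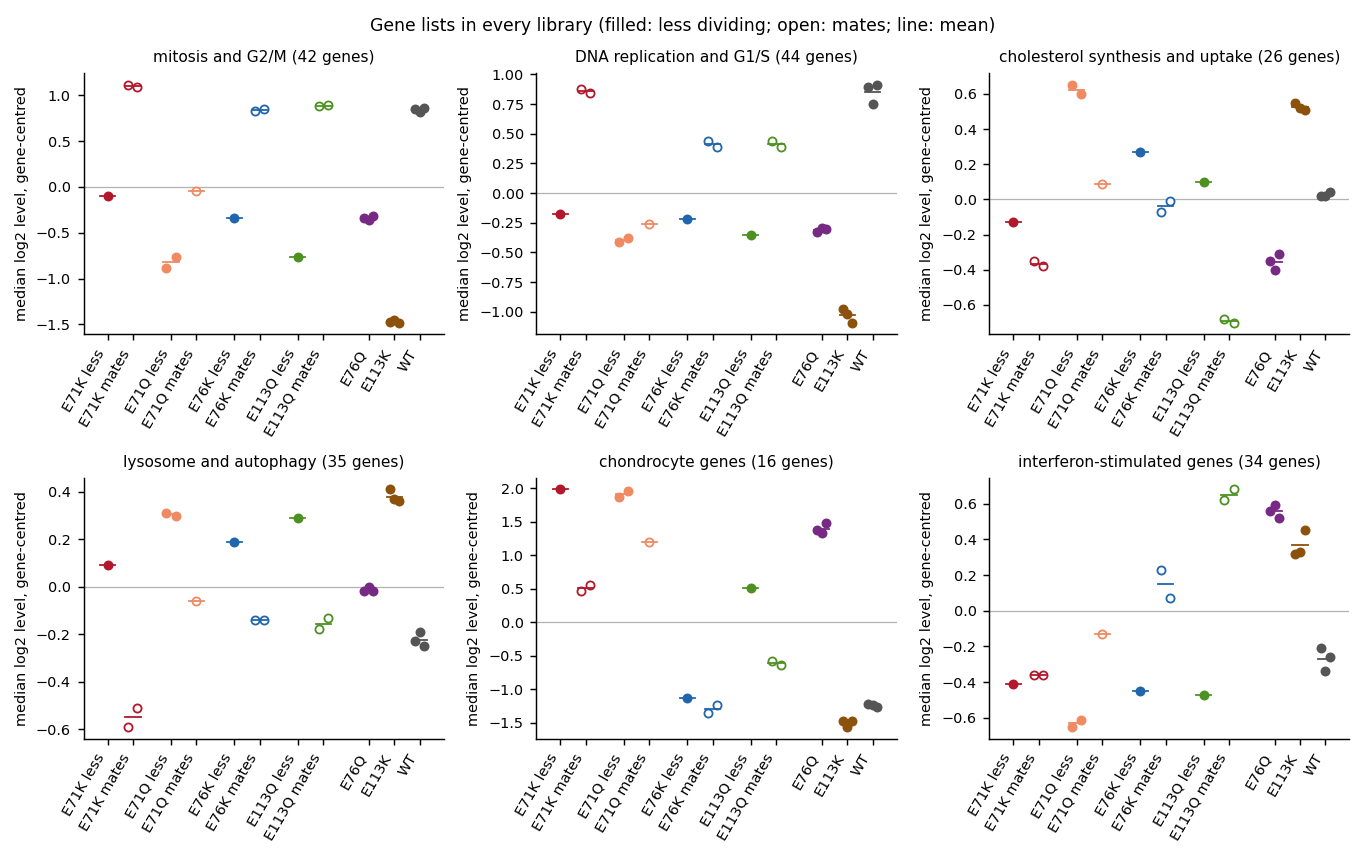
Median level of 6 gene lists in each of the 21 libraries, as log2(TPM + 1) minus the gene's mean over all libraries, with filled points for less dividing libraries, open points for their mates, and E76Q, E113K and WT at the right; a line marks the mean of a group. For mitosis and G2/M genes the less dividing libraries stand at -0.88 to -0.10 and the mates at -0.05 to 1.11, and E76Q (-0.36 to -0.32), E113K (-1.48 to -1.45) and WT (0.82 to 0.86) are each tight.

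The G2/M level also placed the sides among the other groups. The less dividing libraries stood at -0.10 in E71K, -0.88 and -0.77 in E71Q, -0.34 in E76K and -0.77 in E113Q, relative to each gene's mean over the 21 libraries. Their mates stood at 1.11 and 1.09 in E71K, -0.05 in E71Q, 0.83 and 0.85 in E76K and 0.88 and 0.89 in E113Q. The mate of E71Q thus lay next to the less dividing library of E71K, and less dividing is a rank within a line, not a level shared by the lines. E76Q lay between -0.36 and -0.32, E113K between -1.48 and -1.45 and WT between 0.82 and 0.86.

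The genes apart in the 4 lines were looked up in the 9 libraries of E76Q, E113K and WT, which the division did not use. In a limma fit of these 9 libraries, with p-values adjusted by the Benjamini-Hochberg method over 12192 genes and a threshold of 0.05, 4444 genes rose (36.5%) and 4167 fell (34.2%) in E76Q against WT. In E113K against WT 4523 rose (37.1%) and 4310 fell (35.4%), and in E113K against E76Q 3692 were higher (30.3%) and 4299 lower (35.3%). Without rescaling the split of the last comparison turned to 4684 higher and 3320 lower, and the median of all genes in E113K against WT was 0.13 in place of 0.01. Fold changes are on the log2(TPM + 1) scale, which understates those of low genes. Genotype, cell line and cell state cannot be told apart in these comparisons, and both mutants share the 3 WT libraries.

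Of the 121 genes higher in the less dividing libraries, 106 rose in E76Q against WT and 6 fell, with a median log2 fold change of 1.82 beside 0.02 for all genes. In E113K against WT 87 rose and 15 fell, with a median of 1.0 beside 0.01. Of the 170 lower genes, 148 fell and 10 rose in E76Q (median -1.25) and 153 fell and 7 rose in E113K (median -2.16). Between the mutants, 77 of the 121 higher genes were lower and 28 higher in E113K than in E76Q (median -0.59), and 119 of the 170 lower genes were lower and 31 higher (median -0.84).

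**Figure D5:**
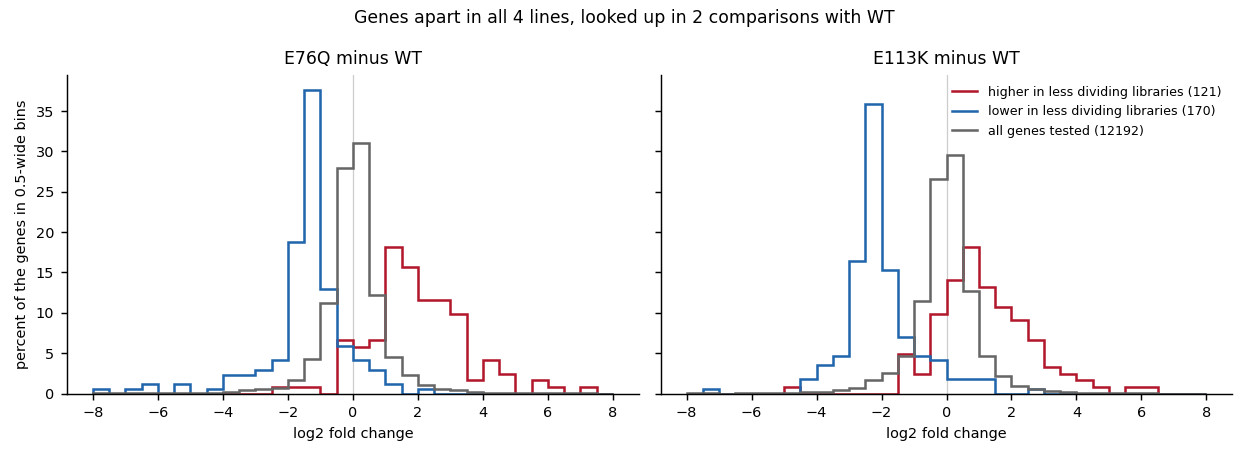
Distribution of log2 fold changes in E76Q minus WT (left) and E113K minus WT (right) for the 121 genes higher and the 170 genes lower in the less dividing libraries and for all 12192 genes tested, as the percent of each set in bins of 0.5. The higher genes center at 1.82 in E76Q and 1.0 in E113K and the lower genes at -1.25 and -2.16, beside 0.02 and 0.01 for all genes; both panels use the same WT libraries.

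Gene by gene, the mitotic genes fell in both mutants, and most chondrocyte genes were lower in E113K than in E76Q. Ccnb2 fell by 1.26 ± 0.05 on the log2 scale in E76Q (SE; limma adjusted p = 2.54e-07; 34.34, 33.09 and 30.66 TPM against 79.71, 79.09 and 80.87 in WT) and by 2.46 ± 0.05 in E113K (adjusted p = 1.08e-08; 14.41, 13.11 and 13.53 TPM). All 42 mitotic genes fell in E76Q and in E113K, where 34.2% and 35.4% of all genes fell, and 43 of 44 replication genes did in either. Fos rose by 4.42 ± 0.12 in E76Q (adjusted p = 3.75e-08) and by 3.88 ± 0.12 in E113K (6.10e-08). Cnmd rose by 7.16 ± 0.09 in E76Q (adjusted p = 1.85e-09), with 167.9, 162.5 and 144.1 TPM against 0.144, 0 and 0.2098 in WT, but had 0.06974, 0.07144 and 0 TPM in E113K (log2 fold change -0.09 ± 0.09, adjusted p = 0.383). Chadl, Ucma and Bglap2 likewise had smaller fold changes in E113K (0.45, 0.40 and 0.76) than in E76Q (5.52, 4.24 and 5.88), and the difference between the mutants was -5.08, -3.84 and -5.11 for these 3 genes (limma adjusted p = 2.20e-09, 1.81e-07 and 1.04e-06). Of 16 chondrocyte genes 14 rose and 1 fell in E76Q, beside 36.5% and 34.2% of all genes. In E113K 6 rose, near the 37.1% of all genes, and 7 fell, beside 35.4%. Between the mutants 14 were lower in E113K than in E76Q, beside 35.3% of all genes. A gene low in most groups could pass the filter only through a group where it is high, such as E76Q. Of 16 osteoblast genes 10 rose in each, beside 36.5% and 37.1% of all genes. Col11a1 rose by 4.31 ± 0.09 in E76Q and 4.06 ± 0.09 in E113K (limma adjusted p = 1.69e-08 and 2.05e-08).

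The cholesterol genes had the opposite arrangement. In E76Q 3 of 26 rose and 19 fell (median -0.41), and in E113K 22 rose and 2 fell (median 0.52), where 36.5% and 37.1% of all genes rose. Tm7sf2 had 12.62, 11.16 and 12.07 TPM in E76Q, 45.56, 40.85 and 40.52 in E113K and 12.82, 15.6 and 15.21 in WT. Hmgcs1 did not pass the test in E76Q (0.02 ± 0.04, adjusted p = 0.73) and rose by 0.78 ± 0.04 in E113K (8.21e-07). Respiratory chain genes also parted, with 35 of 46 risen and 4 fallen in E76Q and 3 risen and 31 fallen in E113K. Lysosome genes rose in both, 24 of 35 in E76Q and 28 of 35 in E113K, with 7 and 5 fallen. Beside these counts, 36.5% of all genes rose and 34.2% fell in E76Q, and 37.1% rose and 35.4% fell in E113K.

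Many interferon-stimulated genes rose in both mutants, while none was higher in all 4 lines. Of 34 interferon genes 24 rose and 6 fell in E76Q (median 0.71) and 23 rose and 8 fell in E113K (median 0.59), beside 36.5% and 37.1% of all genes that rose. Between the less dividing libraries and their mates the median was -0.56, and 0.03 in E71K. Irf7 rose by 0.91 ± 0.08 in E76Q (43.28, 48.39 and 44.1 TPM; adjusted p = 2.95e-05) and by 0.85 ± 0.08 in E113K (40.55, 41.31 and 49.44 TPM; 3.82e-05), against 24.2, 22.19 and 24.65 TPM in WT. Of 13 BMP targets 12 rose in E76Q and 10 in E113K, beside 36.5% and 37.1% of all genes. Between the sides 0 of the 13 were higher and 2 lower in all 4 lines, near the share of all genes. Ltbp2, a matrix protein on the TGF-beta list, was lower in the less dividing libraries (-1.30 ± 0.51) and rose by 0.36 ± 0.04 in E76Q and 1.21 ± 0.04 in E113K (limma adjusted p = 5.37e-05 and 6.07e-08). Fabp4 and Cxcl10 were lower in the less dividing libraries too, and Fabp4 rose by 2.56 ± 0.24 in E113K (3.35e-05) while Cxcl10 rose by 1.13 ± 0.08 in E76Q (7.19e-06) and fell by 1.12 ± 0.08 in E113K (6.89e-06).

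The lower epithelial and growth genes fell in both mutants for the most part. Slurp1 fell by 2.94 ± 0.26 in each (adjusted p = 2.11e-05 in E76Q and 1.90e-05 in E113K), with 4.578, 1.884 and 3.062 TPM in E76Q, 2.42, 4.338 and 2.534 in E113K and 29.66, 28.21 and 31.85 in WT. Anxa8 fell by 1.33 ± 0.04 and 1.30 ± 0.04 (7.20e-08 and 6.94e-08), and Hmga2 by 3.00 ± 0.06 and 1.94 ± 0.06 (1.18e-08 and 6.96e-08). Krt16 rose by 0.55 ± 0.07 in E76Q (adjusted p = 0.000136) at under 1 TPM. Rnase1, higher in the less dividing libraries, did not pass the test in E76Q (0.11 ± 0.18, adjusted p = 0.589) and fell by 0.94 ± 0.18 in E113K (0.00171). Cdkn1b, which had no common direction in the 4 lines, rose by 1.24 ± 0.05 in E113K (2.96e-07), and Cdkn1a fell by 0.81 ± 0.04 there (5.45e-07).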

How the data were processed

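RNA of 21 libraries was measured by sequencing. The authors deposited TPM, gene-level abundance scaled to length and to a fixed total per library (999897 to 999931), and their mean per group, which was not used. RNA came from an RNeasy kit and libraries from NEBNext Ultra II, per the labels; RNA selection and strand are not given in the sources used here. The submitters' processing notes name Salmon, featureCounts 1.4.4, DESeq and mm10 without their roles. Counts were not analysed here, so depth is unknown.

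Of 24091 genes, 24045 matched an Entrez identifier in RefSeq (GRCm38.p6), and 12192 averaging 1 TPM or more were used. Values were divided by median ratios over 8056 genes above 5 TPM in every library and taken as log2(TPM + 1). Within each of the 4 lines the mean of the mates was subtracted from that of the less dividing libraries. A gene lies apart in a line where every less dividing library is on 1 side of every mate. E76Q, E113K and WT were fitted with limma 3.58.1 in R 4.3.3 with its trend option (residual degrees of freedom 6, prior 1.55), Benjamini-Hochberg adjusted within each of 3 comparisons. The procedure was tested on simulated data. The libraries, the 40 gene lists and the tests were chosen with earlier results of these data known. The mitochondrially encoded list was not analysed here, as 0 of its 13 genes are in the table.

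Named genes are Mki67, Top2a and Fos; the 12 with the largest mean difference each way among genes apart in all 4 lines that averaged 5 TPM or more over the 12 libraries; up to 4 members of each list apart in all 4 lines; 12 genes followed in every line; and up to 3 genes for each line that ran opposite to the other lines. List members named with a mean alone, and gene roles, were added to describe the lists after their values were seen. Alternatives were other pseudocounts (0.1, 5), other filters (none, 5 TPM), no rescaling, quantile normalization, Mir6236 removed, a difference of at least 0.5, each library and line left out, replicate number as a block, all 21 libraries in 1 fit and limma without the trend. A filter over the 12 libraries and leaving out Mir and Snor features were chosen after seeing the data. Errors are SD over 4 lines or the SE of the model.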

Additional observations from a re-analysis of the deposited data

Results flagged for a closer look

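Among genes whose sides did not overlap in any line, 7 in E113Q and 2 in each of the other lines had a difference of at least 2-fold against the direction of the other 3 lines, and up to 3 for each line are given. The difference between lines was not tested for any of them. In E71K, Tfrc, the receptor that takes up iron-loaded transferrin, stood at -1.30 (7.258 TPM in the less dividing library against 20.09 and 18.65 in its mates), but at 0.78, 0.23 and 0.46 in E71Q, E76K and E113Q. Megf10, a receptor for the uptake of dying cells, stood at -1.01 in E71K and at 0.21, 0.21 and 0.26 in the others. In E76K, Ccl2, a chemokine that draws monocytes, stood at 1.08 (170.2 TPM against 89.86 and 71.53), but at -2.59, -1.99 and -0.83 in E71K, E71Q and E113Q. Gm38431 stood at -1.03 in E76K. Gmpr, an enzyme of guanine nucleotide salvage, stood at -1.11 in E71Q, where its 2 less dividing libraries had 16.08 and 4.039 TPM against 19.01. The short features Mir7052 in E71Q (-3.38) and Snord12 (3.10), Snord49b (-1.49) and Snord83b (1.28) in E113Q were at 0 TPM in some libraries or varied widely between mates.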

How the results depend on the processing

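The 121 higher and 170 lower genes came to 178 higher and 280 lower with a pseudocount of 0.1, and to 54 higher and 64 lower with a pseudocount of 5. As deposited they came to 174 higher and 108 lower, so the larger side turned from lower to higher. At a mean difference of at least 0.5 they came to 615 higher and 711 lower. Leaving out 1 library at a time gave 103 to 159 higher and 143 to 250 lower genes. Chosen after seeing the data, a filter over the 12 libraries gave 124 and 170, and leaving out Mir and Snor features 119 and 167. Among named genes 16 of 2137 alternative values moved by more than the spread over lines, among list medians 42 of 974, and no gene apart in all 4 lines changed the sign of its mean; list medians near 0 could turn, as those of smooth muscle genes (0.04 as deposited, -0.11 rescaled), histone chaperones (0.03, -0.11) and CDK inhibitors (0.13, -0.01); no skeletal muscle marker was left at 5 TPM. The genes called in E76Q against WT, E113K against WT and E113K against E76Q were 8036 to 8300, 8310 to 8495 and 7398 to 7742 with 1 library left out, which leaves a group of 2, and 7249, 7581 and 6132 in a fit of all 21 libraries. With the replicate block they were 8629, 8843 and 8033 in place of 8611, 8833 and 7991, and the block moved no count by over 1.5 times. Deviations of same-numbered libraries of E76Q, E113K and WT correlated at -0.12 to 0.03, so the numbers do not pair the libraries of these groups. Pairing by number was not tested in the 4 divided lines, where replicate 3 is always on the less dividing side. Values near 0 TPM cannot be weighed without depth, and 1 library on a side leaves no spread to set a difference against.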
